A study of Mus musculus with 12 samples.

Results

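The 10 genes Hdac1 to Hdac10 encode the zinc-dependent histone deacetylases of class I (Hdac1, Hdac2, Hdac3 and Hdac8), class IIa (Hdac4, Hdac5, Hdac7 and Hdac9) and class IIb (Hdac6 and Hdac10). They were chosen by symbol, not by a measured value or a threshold, from a table of 22294 genes, but the family was proposed with results of these data already known, so no pattern across it is independent support. All 10 passed the filter for testing, an FPKM (fragments per length of transcript and per number of mapped fragments) of at least 1 in at least 3 libraries, which left 11604 genes. Hdac7 reached 1 FPKM in 8 libraries and the other members reached it in all 12.

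RNA was sequenced from mouse endometrial cells captured with magnetic beads against F4/80, the macrophage surface protein encoded by Adgre1. There were 4 groups of 3 libraries. The mice were sham-operated and otherwise untreated (Sham), or carried a model of intrauterine adhesion (IUA), scarring of the uterine cavity, whose libraries have the word Matrigel in their titles, or carried the same model and received human mesenchymal stromal cells (MSC) of umbilical cord origin that were unprimed (control MSC) or primed with inflammatory cytokines (primed MSC). The labels name no strain, age, dose, time of sampling or pooling, and no fluorescence sort after the beads, and they do not say that the libraries of a group came from separate animals, so each p-value reflects library-to-library spread, which may be technical.

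Histone deacetylases remove acetyl groups from lysines of histones and other proteins, in opposition to acetyltransferases. Class I enzymes are mainly nuclear, and HDAC1 and HDAC2 work inside the NuRD, SIN3 and CoREST repressor complexes while HDAC3 works with the corepressor NCoR. Class IIa proteins have little deacetylase activity of their own, bind MEF2 transcription factors, and leave the nucleus when kinases phosphorylate them and 14-3-3 proteins hold them in the cytoplasm. HDAC6, of class IIb, deacetylates tubulin and cortactin in the cytoplasm, and HDAC10 deacetylates an acetylated polyamine. In macrophages these enzymes are known as regulators of inflammatory gene expression.

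The stretches around 4 transcription starts are shown because these genes carry the contrasts described below: Hdac5 and Hdac4, close relatives whose levels parted in the primed MSC libraries, Hdac9, whose mean was higher in IUA than in Sham, and Hdac6, whose mean was furthest below Sham in IUA. Each runs 5′ to 3′ on the gene's strand, which is the minus strand for all 4, from 250 bases before the start to 50 bases after it, in RefSeq's annotation of GRCm38.p6. Capitals mark every match, on either strand, to 7 motifs. The GC box was searched as GGGCGG and the box named for its letters as CCAAT. The palindromic E-box was searched as CACGTG, and the core of the cAMP response element as TGACGTC. For AP-1 the letters were TGANTCA. For MEF2 they were CTANNNNTAG. The TATA box was searched as TATAAA, and no motif shares a match with another in these 4 windows.
Hdac5, chr11:102230123-102230422: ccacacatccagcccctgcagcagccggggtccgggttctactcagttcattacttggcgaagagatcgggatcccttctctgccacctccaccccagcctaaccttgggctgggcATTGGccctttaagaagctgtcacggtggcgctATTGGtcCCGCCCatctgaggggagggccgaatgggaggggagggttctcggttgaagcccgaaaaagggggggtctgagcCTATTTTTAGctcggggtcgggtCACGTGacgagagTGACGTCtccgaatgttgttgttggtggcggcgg
Hdac4, chr1:92180292-92180591: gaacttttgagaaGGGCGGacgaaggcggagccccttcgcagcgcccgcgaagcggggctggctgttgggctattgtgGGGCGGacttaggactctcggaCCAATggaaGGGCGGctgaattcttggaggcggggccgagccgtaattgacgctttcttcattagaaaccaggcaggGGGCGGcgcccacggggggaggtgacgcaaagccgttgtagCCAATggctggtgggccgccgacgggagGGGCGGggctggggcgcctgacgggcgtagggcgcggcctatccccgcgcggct
Hdac9, chr12:34917046-34917345: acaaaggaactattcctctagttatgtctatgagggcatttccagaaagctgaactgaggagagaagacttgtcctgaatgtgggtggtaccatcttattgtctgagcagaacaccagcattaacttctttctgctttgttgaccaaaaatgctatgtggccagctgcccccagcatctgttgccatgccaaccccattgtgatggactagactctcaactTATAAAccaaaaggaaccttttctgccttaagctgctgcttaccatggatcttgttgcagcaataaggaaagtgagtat
Hdac6, chrX:7947840-7948139: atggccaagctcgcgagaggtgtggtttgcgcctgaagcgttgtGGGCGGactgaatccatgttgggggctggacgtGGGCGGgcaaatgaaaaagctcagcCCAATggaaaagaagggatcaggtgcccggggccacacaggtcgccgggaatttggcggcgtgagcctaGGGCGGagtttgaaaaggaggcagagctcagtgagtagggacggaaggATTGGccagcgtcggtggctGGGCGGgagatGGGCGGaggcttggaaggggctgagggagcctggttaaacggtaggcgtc

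The Hdac5 window had 60.7% G and C and 18 CpG dinucleotides, against medians of 52.7% and 7 over the 32851 windows of RefSeq. It held 1 GC box, 2 CCAAT boxes, 1 E-box, 1 cAMP response element core and 1 MEF2 site. The Hdac4 window, with 68.0% G and C and 32 CpG, held 5 GC boxes and 2 CCAAT boxes, and so did the Hdac6 window, with 62.0% and 20. The Hdac9 window stood apart from these 3, with 44.0% G and C, 0 CpG and 1 TATA box. Of all windows, 35.7% held a GC box, 37.4% a CCAAT box, 7.2% the E-box, 3.2% the cAMP response element core, 3.7% the MEF2 site, 7.8% the AP-1 site and 13.6% the TATA box. These are matches of letters, and no binding was measured. RefSeq's table had windows for 7 of the 10 members, 11 in all, and none for Hdac1, Hdac3 or Hdac10. Hdac7 and Hdac9 had several windows, and the one shown for Hdac9 lies at the outer end of the gene. The other Hdac9 window, chr12:34528840-34529139, had 45.3% G and C and 3 CpG. It held 1 MEF2 site, 1 AP-1 site and 0 TATA boxes.

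The libraries themselves differed in ways that touch every comparison with Sham, and cell markers also differed between primed MSC and IUA. All 10 macrophage markers were above 0 in every group, with summed levels of 5014.6 to 5961.4 FPKM in Sham and 13008.1 to 15857.9 FPKM in the other 9 libraries. All 12 markers of uterine epithelium were above 0 as well, and their sum was 8013.4 to 14011.7 FPKM in Sham against 1520.5 to 5381.4 FPKM elsewhere. Adgre1, the capture antigen, had means ± SD (n = 3) of 222.7 ± 29.0 FPKM in Sham, 433.7 ± 38.1 in IUA, 939.9 ± 101.2 after control MSC and 1175 ± 200 after primed MSC. The Sham libraries thus had the lowest summed macrophage and the highest summed epithelial levels. Of the macrophage markers 8 were higher and 1 lower in IUA than in Sham: Cx3cr1 stood at 10.1 to 13.1 FPKM in Sham and 6.76 to 8.29 in IUA, and Csf1r overlapped between them. In such mixed RNA fewer cells of a type and less RNA per cell cannot be told apart. Of all genes tested, 56.2% passed the threshold between IUA and Sham, with 11.1% higher and 45% lower in IUA, and the median log2 change of all genes was -0.35. When libraries were rescaled by the median of their gene ratios, that median became -0.01 and the calls became 2656 higher and 2572 lower, so changes against Sham are also given for these rescaled libraries.

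Other cell markers, and immediate-early and heat shock genes, differed between groups too, in places by no more than all genes did. Of 8 neutrophil markers 7 were higher in IUA than in Sham (11.1% of all genes), with a median log2 change of +2.48. Their summed level was 32.2 to 82.3 FPKM in Sham, 319.9 to 413.0 in IUA, 699.2 to 1112.3 after control MSC and 350.5 to 1411.6 after primed MSC. Most of that sum was Ltf, at 241.7 to 307.4 FPKM in IUA, 481.4 to 995.1 after control MSC and 239.4 to 1166.5 after primed MSC. Camp stood at 2.23 to 5.39 FPKM in IUA and 0.3 to 0.69 after control MSC, and Ngp at 5.61 to 16.1 and 0.53 to 3.15. After control MSC against IUA 1 marker was higher and 1 lower (0.724% and 0.129% of all genes). After primed MSC against IUA 1 was higher and 2 lower (12.2% and 6.97%). Of 8 smooth muscle markers 5 were lower in IUA and 8 in each MSC group than in Sham. Of 8 markers of endometrial stroma 3 were lower in IUA and 5 in each MSC group. Of all genes 45% were lower in IUA, 42.7% after control MSC and 45% after primed MSC. On the rescaled libraries 1, 8 and 8 smooth muscle markers and 2, 3 and 5 stromal markers were lower in the same order. Of all genes 22.2%, 24.2% and 25.1% were lower there. Every gene of these 3 lists was above 0 in each group. A list of 12 immediate-early and heat shock genes was counted because such genes can respond to dissociation. Of these, 1 was higher and 7 were lower in IUA than in Sham (11.1% and 45% of all genes), with a median of -0.76. On the rescaled libraries 3 were higher and 4 lower (22.9% and 22.2%). After control MSC 2 were higher and 6 lower than in Sham (14.1% and 42.7%). After primed MSC 2 were higher and 3 lower (14.5% and 45%), with a median of -0.315 beside -0.325 for all genes. Whether handling or the state of the cells moved these 12 genes was not tested. After primed MSC against IUA 5 of the 10 macrophage markers were higher and 0 lower (12.2% and 6.97% of all genes). Their median was +0.46 beside -0.025 for all genes. Of 10 endothelial and 8 stromal markers 2 each were lower and 0 higher, with medians of -0.31 and -0.77. No smooth muscle or epithelial marker was called there, with medians of -0.61 and -0.27. The part of these cells and genes in the changes of the family, against Sham or among the IUA groups, was not tested.

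In every group the class I gene Hdac1, a catalytic subunit of several repressor complexes, had the highest mean of the family and the class IIa gene Hdac7 the lowest. In Sham the order of mean FPKM (± SD, n = 3) was Hdac1 (45.9 ± 4.3), Hdac3 (32.2 ± 3.6), Hdac2 (31.7 ± 3.5), Hdac4 (18.2 ± 1.3), Hdac6 (11 ± 1.4), Hdac5 (8.58 ± 1.04), Hdac9 (5.76 ± 1.09), Hdac8 (4.12 ± 0.39), Hdac10 (2.93 ± 0.22) and Hdac7 (2.34 ± 0.08). Hdac3 and Hdac2 were closer to each other than their spread, and the gap between Hdac9 and Hdac8 was of the order of their spreads. FPKM is a level per length, so these levels can be set beside each other. After primed MSC the order was Hdac1 (25.5 ± 2.4), Hdac5 (21.5 ± 0.9), Hdac3 (17.6 ± 1.3), Hdac2 (15.8 ± 2.8), Hdac4 (12.9 ± 0.8), Hdac9 (6.05 ± 0.88), Hdac6 (4.15 ± 0.49), Hdac10 (2.90 ± 0.22), Hdac8 (2.14 ± 0.20) and Hdac7 (1.14 ± 0.21). Hdac5 thus moved from rank 6 in Sham to rank 2 after primed MSC, and in IUA and control MSC it stood at ranks 6 and 5.

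**Figure D1:**
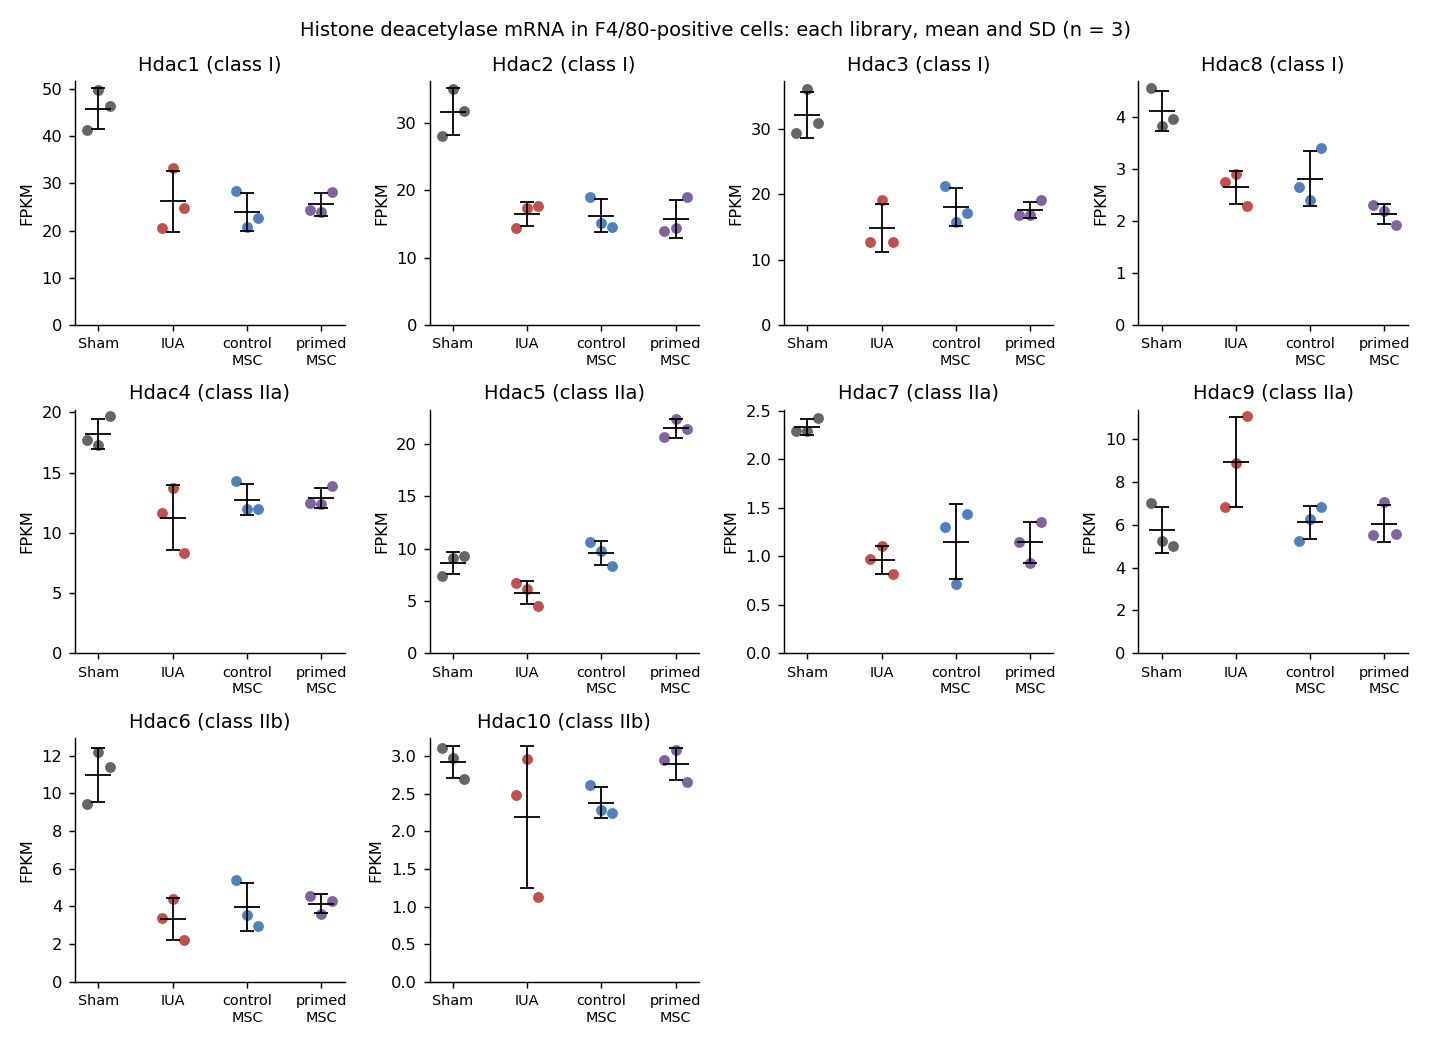
FPKM of each histone deacetylase gene (a panel for each gene, vertical axis in FPKM from 0) in the 12 libraries, by group; points are libraries and the bar is the group mean with its SD. Hdac1, Hdac2, Hdac3, Hdac8, Hdac4, Hdac7 and Hdac6 have all 3 Sham libraries above the other 9, Hdac5 has all 3 primed MSC libraries at 20.6 to 22.4 above the other 9, and for Hdac9 and Hdac10 no group lies apart from all other libraries.

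Class I was lower in IUA than in Sham for all 4 members. Hdac1 measured 41.3, 49.9 and 46.5 FPKM in the Sham libraries 1 to 3 and 20.6, 33.2 and 24.7 in IUA. After control MSC it measured 28.5, 20.7 and 22.6 FPKM, and after primed MSC 24.4, 24.0 and 28.3. All 3 Sham libraries were above all 9 others, and the other 3 groups overlapped. The log2 change of Hdac1 in IUA against Sham, here and below on the scale of log2(FPKM + 1), was -0.81 ± 0.17 (SE; limma adjusted p = 0.00173). RefSeq lists a processed copy of Hdac1 among its pseudogenes, so reads could be shared with it and the level of Hdac1 is uncertain to that extent.

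Hdac3, the deacetylase of the NCoR corepressor, stood at 29.4, 36.2 and 31.0 FPKM in Sham and at 12.7, 19.1 and 12.8 in IUA. Its values were 21.3, 15.7 and 17.2 FPKM after control MSC and 16.9, 16.9 and 19.1 after primed MSC. Again no library of the 3 IUA groups reached a Sham library. The change in IUA against Sham was -1.08 ± 0.16 (limma adjusted p = 3.07e-04), the furthest below 0 in class I.

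Hdac2, the partner of Hdac1 in the same complexes, had 28.1, 35.1 and 31.9 FPKM in Sham, 14.5, 17.4 and 17.7 in IUA, 19.1, 15.1 and 14.5 after control MSC and 13.97, 14.4 and 19 after primed MSC. The ratio of Hdac1 to Hdac2 overlapped between Sham (1.42 to 1.47), IUA (1.39 to 1.91) and control MSC (1.37 to 1.56). After primed MSC it was 1.49 to 1.74, which overlapped IUA and control MSC and lay above Sham. The log2 change of Hdac2 in IUA against Sham was -0.90 ± 0.15 (limma adjusted p = 5.02e-04). Hdac8, a class I enzyme that works outside the large complexes, was the scarce member of the class at 4.57, 3.83 and 3.97 FPKM in Sham, 2.75, 2.91 and 2.30 in IUA, 2.65, 2.40 and 3.41 after control MSC and 2.31, 2.19 and 1.92 after primed MSC. Its groups did not overlap between IUA and Sham either, and its change was -0.49 ± 0.14 (limma adjusted p = 0.0111).

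In both MSC groups all 4 class I members were also lower than in Sham (42.7% of all genes were lower after control MSC and 45% after primed MSC), with log2 changes from -0.43 ± 0.14 for Hdac8 (limma adjusted p = 0.0206) to -0.93 ± 0.15 for Hdac2 (3.31e-04) after control MSC and from -0.71 ± 0.14 for Hdac8 (0.00112) to -0.97 ± 0.15 for Hdac2 (2.14e-04) after primed MSC. On the rescaled libraries the changes in IUA were -0.41 for Hdac1 (limma adjusted p = 0.0382), -0.51 for Hdac2 (0.00811) and -0.69 for Hdac3 (0.00245), while Hdac8 was at -0.17 (0.346) and no longer passed. On these libraries Hdac1, Hdac2 and Hdac3 were still lower than Sham in both MSC groups. Hdac8 was not called after control MSC, at -0.13 (limma adjusted p = 0.47), and was called after primed MSC, at -0.38 (0.0421). As deposited, its call after control MSC was also lost without Sham 1 (limma adjusted p = 0.0678), control MSC 1 (0.0597) or control MSC 2 (0.0885), and its sign turned with quantile normalization (+0.022, 0.907). No class I member passed the threshold between control MSC and IUA (0.853% of all genes did), between primed MSC and IUA (19.1%) or between the MSC groups (0.112%). Nearest to it after control MSC against IUA was Hdac3, at +0.28 ± 0.16 (limma adjusted p = 0.381). After primed MSC against IUA the nearest were Hdac8 (-0.22 ± 0.14, limma adjusted p = 0.296) and Hdac3 (+0.25 ± 0.16, 0.297). Between primed and control MSC it was Hdac8, at -0.28 ± 0.14 (limma adjusted p = 0.445).

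Class IIa did not move as a block. In IUA, 3 of its 4 members were below Sham and Hdac9 was above it. Hdac4, a MEF2-binding corepressor and the most abundant class IIa gene in Sham, stood at 17.7, 17.3 and 19.7 FPKM in Sham and 11.7, 13.8 and 8.35 in IUA. It measured 14.3, 12.02 and 12 FPKM after control MSC and 12.5, 12.4 and 13.9 after primed MSC. Its groups did not overlap between Sham and IUA, and the change was -0.67 ± 0.15 (limma adjusted p = 0.00318). On the rescaled libraries it was -0.29 (limma adjusted p = 0.12), and -0.12 and -0.07 after control and primed MSC against Sham (0.496 and 0.723).

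Hdac5, the paralog of Hdac4 with the same MEF2-binding and nuclear export design, had its lowest values in IUA and its highest after primed MSC. It measured 7.39, 9.05 and 9.31 FPKM in Sham, 6.73, 6.12 and 4.54 in IUA, 10.6, 9.78 and 8.36 after control MSC and 20.6, 22.4 and 21.4 after primed MSC. Each primed MSC library was above every other library, by more than the whole range of the other 9, which ran from 4.54 to 10.6. All 3 control MSC libraries were above all 3 IUA libraries and overlapped Sham.

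Between primed MSC and IUA, the mean of Hdac5 was 3.70-fold higher, and its log2 change was +1.74 ± 0.15 (limma adjusted p = 1.16e-04). It was the 1 member of 10 that passed the threshold, where 12.2% of all genes tested were higher and 6.97% lower. Against Sham the mean was 2.50-fold higher after primed MSC and the change +1.23 ± 0.15 (limma adjusted p = 3.97e-05). Both calls held in all 29 alternative analyses, with changes between 1.36 and 1.89 against IUA and between 1.14 and 1.62 against Sham.

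Between primed and control MSC, Hdac5 was 2.24-fold higher with a log2 change of +1.09 ± 0.15 (limma adjusted p = 0.0283), and it was the 1 member called where 0.112% of all genes, 13 of 11604, were (0.0776% higher and 0.0345% lower). Among the other 8 genes called higher were Map3k11, Tgfb3, Epb41, Pxn, Jak3, Dctn1 and Snx18, and the 4 called lower were Pinlyp, Cwh43, S100a10 and Serpina1e. Jak3, a kinase of cytokine signalling, changed by +1.16 ± 0.19 (limma adjusted p = 0.04996). The groups of Hdac5 did not overlap, yet the call was lost, with changes of 1.01 to 1.16, when any 1 library of either MSC group was left out, with limma adjusted p up to 0.179, when the Sham 2 library was left out (0.052), and when no filter was applied (0.0564). The number of all genes called moved as well: without any 1 MSC library at most 1 was higher and 1 lower, without Sham 2 there were 1 and 2, without Sham 3 there were 2 and 4, and without IUA 3 there were 183 and 50. Over all alternatives it ran from 0 to 243 higher and from 0 to 145 lower.

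Between control MSC and IUA, Hdac5 changed by +0.65 ± 0.15 and did not pass (limma adjusted p = 0.0583), and none of the 10 members was called by limma at an adjusted p under 0.05. It passed without the IUA 1 library (limma adjusted p = 0.036). Whether the response of Hdac5 differed between control and primed MSC is given by the direct comparison above, since both were set against the same IUA libraries.

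Between IUA and Sham the direction of Hdac5 depended on the treatment of the values. As deposited, it was -0.50 ± 0.15 (limma adjusted p = 0.0116), on the rescaled libraries -0.15 (0.439), and after a correction for GC content +0.11 (0.49). Transcripts of Hdac5 are 59.3% G and C, at the 95.3rd percentile of genes tested, and the libraries differed along GC content: across genes, Spearman's rho between GC content and a library's deviation from the gene mean was 0.07 to 0.09 in Sham, -0.15, -0.18 and -0.48 in IUA, -0.09 to 0.09 after control MSC and 0.14 to 0.22 after primed MSC. After the GC correction Hdac5 after primed MSC was still +1.37 ± 0.12 against IUA (limma adjusted p = 1.51e-04) and +0.93 ± 0.12 against control MSC (0.0213). Without the IUA 3 library, the one furthest from the others along GC content, Hdac5 was at -0.36 in IUA against Sham and +1.60 after primed MSC against IUA, both still called. After control MSC against Sham it moved from +0.14 as deposited (limma adjusted p = 0.422) to +0.48 on the rescaled libraries (0.0161) and +0.54 after the correction (0.00308).

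**Figure D2:**
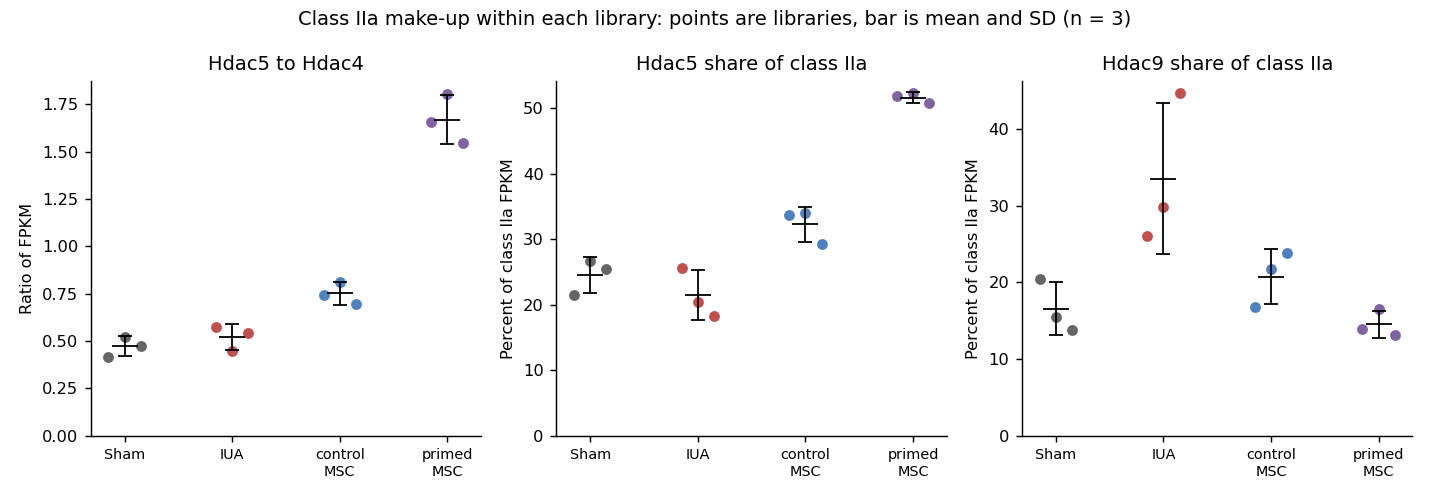
Makeup of class IIa by library: the ratio of Hdac5 to Hdac4 FPKM, and the shares of Hdac5 and of Hdac9 in the summed class IIa FPKM in percent, in the 12 libraries by group (points are libraries, bars the mean and SD). The Hdac5 to Hdac4 ratio lies between 0.418 and 0.576 in Sham and IUA, between 0.697 and 0.814 after control MSC and between 1.55 and 1.80 after primed MSC.

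The ratio of Hdac5 to Hdac4 within a library does not depend on how libraries are scaled. It was 0.418, 0.523 and 0.473 in Sham, 0.576, 0.445 and 0.544 in IUA, 0.742, 0.814 and 0.697 after control MSC and 1.66, 1.80 and 1.55 after primed MSC. Sham and IUA overlapped, while control MSC lay above both and primed MSC above all 9 other libraries. After the GC correction the group means ± SD (n = 3) were 0.463 ± 0.061, 0.593 ± 0.114, 0.755 ± 0.049 and 1.503 ± 0.134 in the same order. Hdac5 made up 21.5% to 26.7% of the summed class IIa FPKM in Sham, 18.3% to 25.7% in IUA, 29.2% to 34.0% after control MSC and 50.8% to 52.3% after primed MSC.

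Hdac9, whose long gene also yields a truncated MEF2-binding repressor, measured 7.01, 5.25 and 5.03 FPKM in Sham and 6.84, 8.89 and 11.1 in IUA. It measured 5.26, 6.25 and 6.81 FPKM after control MSC and 5.53, 7.07 and 5.56 after primed MSC, levels that overlapped Sham. The IUA and Sham groups overlapped by 1 library, and the IUA libraries were widely spread. The change in IUA was +0.54 ± 0.18 (limma adjusted p = 0.0219), and +0.89 (0.0023) on the rescaled libraries, which makes Hdac9 the 1 member called higher in IUA. The call was lost without IUA 3 (+0.39, limma adjusted p = 0.084), without Sham 2 (0.0709) and without Sham 3 (0.0756), and the test over all 4 groups did not pass (limma moderated F, adjusted p = 0.0548), as it did for 8 of the 10 members and 67% of all genes. Its changes against IUA were -0.47 ± 0.18 after control MSC (limma adjusted p = 0.2) and -0.48 ± 0.18 after primed MSC (0.0803), neither past the threshold. The share of Hdac9 in class IIa was 26.1%, 29.8% and 44.7% in IUA and 13.2% to 23.8% in the other 9 libraries, with the IUA 3 library highest.

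Hdac7, the class IIa member known from endothelium and thymocytes, was near the filter at 2.29, 2.29 and 2.43 FPKM in Sham and 0.97, 1.11 and 0.82 in IUA. It measured 1.30, 0.71 and 1.44 FPKM after control MSC and 1.15, 0.93 and 1.35 after primed MSC. The Sham libraries stood above the other 9, which overlapped one another. The change in IUA was -0.77 ± 0.15 (limma adjusted p = 0.0015), a value that understates the fold of so low a gene. It was -0.50 on the rescaled libraries (limma adjusted p = 0.0164), while the call was lost with quantile normalization (-0.35, 0.0599) and after the GC correction (-0.15, 0.444). Transcripts of Hdac7 lie at the 96.5th percentile of GC content among genes tested. Markers of endothelium moved with it: all 10 were above 0 in every group, and their sum was 219.5 to 388.0 FPKM in Sham and 90.8 to 148.0 FPKM in the other groups, and their part in the result was not tested. Hdac7 overlaps Slc48a1 on the opposite strand, and the library protocol marks no strand, so their reads cannot be told apart where they overlap.

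Class IIb split as well. Hdac6, the cytoplasmic tubulin deacetylase, had 9.42, 12.2 and 11.4 FPKM in Sham and 3.40, 4.40 and 2.21 in IUA. It measured 5.38, 3.57 and 2.96 FPKM after control MSC and 4.56, 3.61 and 4.29 after primed MSC. The lowest Sham library was above the highest library of any other group. Its change in IUA, -1.49 ± 0.21 (limma adjusted p = 2.38e-04), was the furthest below 0 in the family and at the 4.9th percentile of all genes tested, and it was -1.14 (0.00104) on the rescaled libraries. After control and primed MSC it was -1.29 ± 0.21 and -1.22 ± 0.21 against Sham (limma adjusted p = 3.82e-04 and 4.91e-04), and it did not pass between MSC groups and IUA.

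Hdac10, the polyamine deacetylase, stood at 3.11, 2.98 and 2.69 FPKM in Sham, 2.48, 2.96 and 1.13 in IUA, 2.62, 2.28 and 2.24 after control MSC and 2.95, 3.08 and 2.66 after primed MSC. Its IUA libraries were the most scattered, with IUA 3 lowest of all 12. The change in IUA was -0.35 ± 0.20 (limma adjusted p = 0.149), equal to the median of all genes, and Hdac10 passed in none of the 6 comparisons. The ratio of Hdac6 to Hdac10 was 3.03 to 4.23 in Sham, 1.37 to 1.96 in IUA, 1.32 to 2.05 after control MSC and 1.17 to 1.61 after primed MSC, so that Sham lay above all other libraries.

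**Figure D3:**
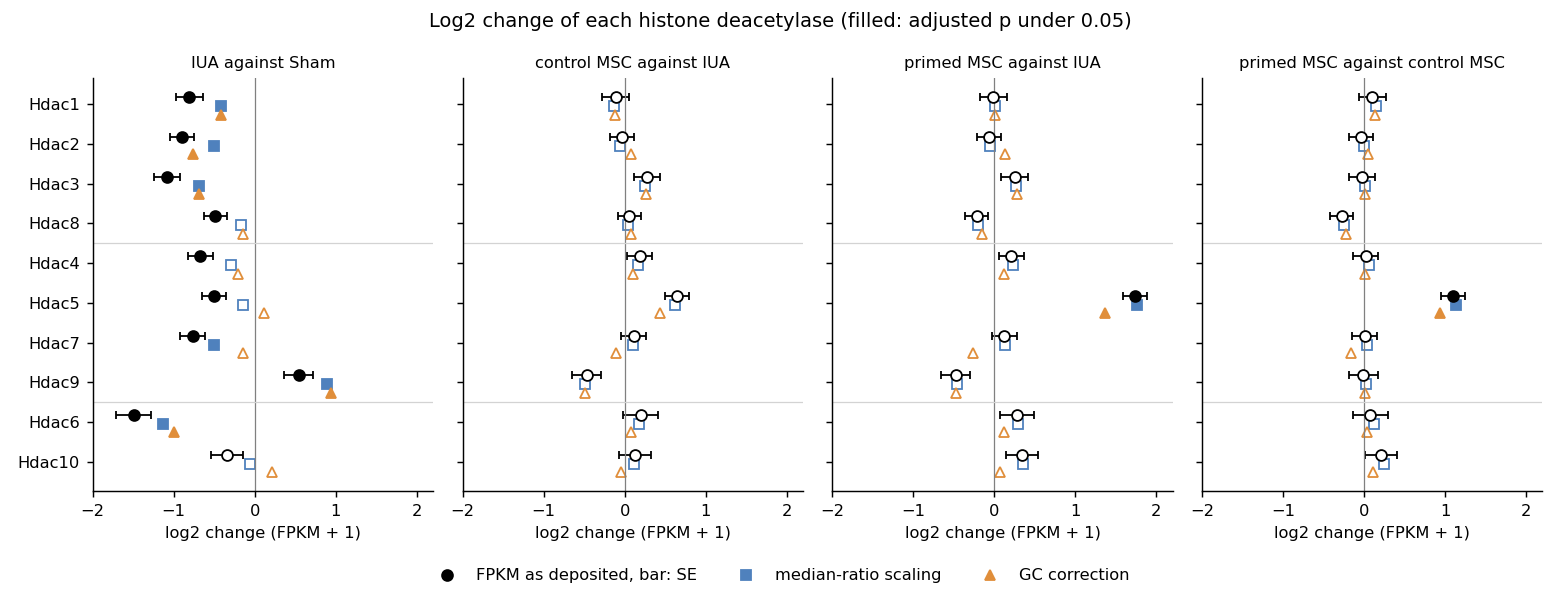
Log2 change with its standard error for each histone deacetylase in IUA against Sham, control MSC against IUA, primed MSC against IUA and primed against control MSC, from the limma analysis of log2(FPKM + 1) as deposited (circles), after median-ratio scaling (squares) and after GC correction (triangles); filled symbols have an adjusted p under 0.05. In IUA against Sham 9 of 10 members are called on the deposited values, 8 of them lower; in the comparisons among the IUA groups Hdac5 is the called member, at +1.74 against IUA and +1.09 against control MSC.

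Across the family, 8 of 10 members were lower and 1 higher in IUA than in Sham, beside 45% and 11.1% of all genes, and 8 of 10 did not overlap between the groups, beside 59.6% of all genes. The median change of the 10 was -0.72, beside -0.35 for all genes. On the rescaled libraries 5 were lower and 1 higher, with a median of -0.35 beside -0.01, where 22.9% of all genes were higher and 22.2% lower. After control MSC against Sham 7 members were lower and 0 higher (42.7% and 14.1% of all genes, 56.8% in all), and after primed MSC against Sham 7 were lower and 1 higher (45% and 14.5%, 59.5% in all). The members lower in both were Hdac1, Hdac2, Hdac3, Hdac8, Hdac4, Hdac7 and Hdac6, and these comparisons share the Sham libraries. On the rescaled libraries 5 members were lower and 1 higher in each. Those lower in both were then Hdac1, Hdac2, Hdac3 and Hdac6, with Hdac7 called after control MSC alone (limma adjusted p = 0.0405, and 0.0543 after primed MSC) and Hdac8 after primed MSC alone, and the one higher was Hdac5. Of all genes 26.2% were then higher and 24.2% lower after control MSC (50.4% in all), and 27.9% and 25.1% after primed MSC (53% in all). With the mean of the epithelial markers as a covariate, 0 members passed in IUA or control MSC against Sham and Hdac5 alone passed after primed MSC against Sham (+1.35 ± 0.27, limma adjusted p = 0.0109), while Hdac5 after primed MSC against IUA was +1.75 ± 0.15 (1.64e-04). Every Sham library had a higher epithelial score than any other library, so epithelial RNA and the Sham group cannot be told apart.

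**Figure D4:**
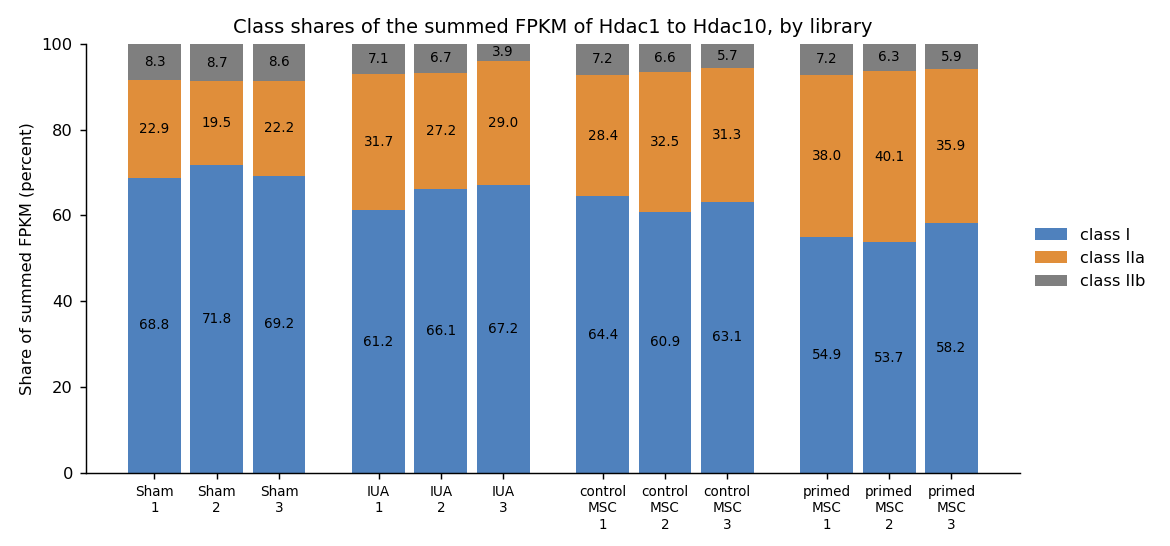
Share of the summed FPKM of the 10 histone deacetylase genes held by class I, class IIa and class IIb in each library, in percent. Class IIa holds 19.5% to 22.9% in Sham and 35.9% to 40.1% after primed MSC, with IUA and control MSC between 27.2% and 32.5%.

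Class I held the largest share of the family's summed FPKM in all 12 libraries, and class IIa held more of it after primed MSC than in any other library. Between control and primed MSC that difference lay in Hdac5. The mean class IIa sum went from 29.6 to 41.6 FPKM and Hdac5 from 9.58 to 21.5. Hdac4 stood at 12.8 and 12.9 FPKM, Hdac9 at 6.11 and 6.05 and Hdac7 at 1.15 and 1.14. The summed FPKM of the 10 genes was 150.3 to 174.0 in Sham, 82.7 to 109.9 in IUA, 88.6 to 110.9 after control MSC and 104.8 to 117.4 after primed MSC. Class I held 68.8%, 71.8% and 69.2% of it in Sham, 61.2%, 66.1% and 67.2% in IUA, 64.4%, 60.9% and 63.1% after control MSC and 54.9%, 53.7% and 58.2% after primed MSC. Class IIa held 22.9%, 19.5% and 22.2% in Sham, 31.7%, 27.2% and 29.0% in IUA, 28.4%, 32.5% and 31.3% after control MSC and 38.0%, 40.1% and 35.9% after primed MSC.

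IUA and control MSC overlapped in both shares, while Sham and primed MSC each lay apart from all other libraries. Class IIb held 8.34% to 8.73% in Sham, 3.90% to 7.11% in IUA, 5.68% to 7.21% after control MSC and 5.92% to 7.17% after primed MSC. After the GC correction class I held 71.0% ± 1.5 in Sham, 62.2% ± 2.6 in IUA, 62.7% ± 2.0 after control MSC and 57.8% ± 2.6 after primed MSC, where the highest primed MSC library (60.7%) was above the lowest IUA library (59.8%), so these groups overlapped. Class IIa then held 20.8% ± 1.7 in Sham, 31.2% ± 2.7 in IUA, 30.8% ± 2.4 after control MSC and 36.0% ± 2.3 after primed MSC (SD, n = 3). The summed level of class I was 103.4 to 124.9 FPKM in Sham, 50.6 to 72.7 in IUA and 57.4 to 68.3 after primed MSC. That of class IIa was 33.9 to 36.5 FPKM in Sham, 24.8 to 29.9 in IUA and 39.8 to 42.8 after primed MSC. These sums and shares are descriptions and were not tested.

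Hdac11, the only class IV gene and not one of the 10, measured 1.09, 1.81 and 1.43 FPKM in Sham and 0.20 to 0.44 in the other libraries. It passed the filter through the Sham libraries alone, so its lower mean of 0.340 ± 0.125 FPKM in IUA (-0.86 ± 0.14, limma adjusted p = 4.42e-04) follows in part from the filter. The sirtuins, the NAD-dependent class III, had 1 of 7 genes higher and 0 lower in IUA, beside 11.1% and 45% of all genes, and a median change of -0.09. On the rescaled libraries 2 were higher and 0 lower, with a median of +0.20. The member that rose was Sirt2, from 48.7 ± 7.8 to 75.1 ± 7.8 FPKM (+0.62 ± 0.12, limma adjusted p = 0.00106), a cytoplasmic deacetylase that also acts on tubulin.

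Partners of the class I enzymes in the NuRD, SIN3, CoREST and MiDAC complexes were counted in both scalings. Of all genes 45% were lower and 11.1% higher in IUA than in Sham, and 22.2% and 22.9% on the rescaled libraries. Of 11 NuRD genes tested 9 were lower and 0 higher, with a median change of -0.58, and 2 were lower on the rescaled libraries. Rbbp7, a histone-binding subunit, fell from 836 ± 191 to 266 ± 95 FPKM (-1.70 ± 0.32, limma adjusted p = 9.60e-04), and Mbd3 from 20.5 ± 3.0 to 10.3 ± 1.7 (-0.93 ± 0.14, 3.61e-04). Of 13 SIN3 genes 5 were lower and 1 higher, and on the rescaled libraries this turned to 0 lower and 5 higher. Of 5 CoREST genes 2 were lower, Rcor1 (-1.03 ± 0.18, limma adjusted p = 6.78e-04) and Rcor3 (-0.57 ± 0.16, 0.00866), and on the rescaled libraries 1 was lower and the median was +0.13. Both MiDAC genes tested were lower on both scales, Elmsan1 by -1.28 ± 0.19 (limma adjusted p = 2.77e-04) and Dnttip1 by -0.97 ± 0.20 (0.00173).

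Partners of class IIa included a gene with the order of groups that Hdac5 had. Mef2d, a transcription factor bound by class IIa proteins, measured 12.8 ± 0.7 FPKM in Sham, 8.04 ± 1.61 in IUA, 13.2 ± 2.1 after control MSC and 21.4 ± 0.8 after primed MSC. Its change after primed MSC against IUA was +1.33 ± 0.15 (limma adjusted p = 4.69e-04), and against control MSC +0.67 ± 0.15 (0.108). Mef2c and Mef2a changed by -0.39 ± 0.15 (limma adjusted p = 0.079) and +0.23 ± 0.12 (0.189) after primed MSC against IUA and did not pass. Of 12 kinases that act on class IIa proteins, 7 were lower and 1 higher in IUA, beside 45% and 11.1% of all genes. On the rescaled libraries 5 were lower and 4 higher, beside 22.2% and 22.9%. Prkd1 and Prkd2, of the protein kinase D family, reached 1 FPKM in Sham libraries alone, so that 2 of the 7 lower calls follow in part from the filter. Sik1 fell from 15.7 ± 3.1 to 4.63 ± 1.70 FPKM (-1.60 ± 0.22, limma adjusted p = 1.86e-04) and Mark3 from 19.3 ± 1.5 to 5.88 ± 1.92 (-1.59 ± 0.19, 9.39e-05).

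After primed MSC against IUA 2 of these kinases were higher and 0 lower, beside 12.2% and 6.97% of all genes, and 4 were higher on the rescaled libraries. The 2 were Camk1d (+0.97 ± 0.16, limma adjusted p = 0.00285) and Sik1 (+0.72 ± 0.22, 0.038). Of 7 genes of 14-3-3 proteins, which hold phosphorylated class IIa proteins in the cytoplasm, 6 were lower in IUA, beside 45% of all genes. Their median change was -0.48, beside -0.35 for all genes. On the rescaled libraries 1 was lower, beside 22.2% of all genes. Ywhaz was higher after primed MSC than in IUA (+0.31 ± 0.09, limma adjusted p = 0.0295). Its means were 372 ± 30 FPKM in Sham, 265 ± 15 in IUA, 329 ± 9 after control MSC and 328 ± 7 after primed MSC.

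Of 11 substrates and partners of HDAC6, 7 were lower and 2 higher in IUA, beside 45% and 11.1% of all genes. On the rescaled libraries 3 were lower and 3 higher, beside 22.2% and 22.9%. Cttn, which encodes the substrate cortactin, fell from 80.4 ± 14.7 to 25.9 ± 9.3 FPKM (-1.64 ± 0.30, limma adjusted p = 8.18e-04), and Tuba1a, an alpha-tubulin, from 77.6 ± 11.1 to 32.3 ± 8.1 (-1.26 ± 0.15, 1.12e-04). After primed MSC against IUA Tuba1b was higher (+0.60 ± 0.12, limma adjusted p = 0.0061). Of 7 genes of polyamine metabolism, the pathway of HDAC10, 1 was higher and 2 lower in IUA: Odc1, the rate-limiting enzyme of polyamine synthesis, rose from 103 ± 16 to 250 ± 60 FPKM (+1.26 ± 0.16, limma adjusted p = 1.26e-04), while Amd1 and Srm were lower. With rescaling 3 of these genes were higher and 2 lower, and on both scales the shares of all genes were those given above. After primed MSC against IUA 1 of the 7 was higher and 1 lower (12.2% and 6.97% of all genes), with a median of -0.24 beside -0.025 for all genes. On the rescaled libraries 1 was higher and 2 lower (13.1% and 7.49%). The gene called higher was Smox, spermine oxidase (+0.83 ± 0.15, limma adjusted p = 0.00441).

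The enzymes and readers on the other side of the acetylation cycle were also counted. Of 13 histone acetyltransferases 6 were lower and 0 higher in IUA, beside 45% and 11.1% of all genes. On the rescaled libraries 3 were lower and 4 higher, beside 22.2% and 22.9%. After primed MSC against IUA 5 were higher and 1 lower, with a median change of +0.25 beside -0.03 for all genes, and the counts were the same on the rescaled libraries, where 13.1% of all genes were higher and 7.49% lower. Kat2a rose from 1.35 ± 0.85 to 3.36 ± 0.68 FPKM (+0.94 ± 0.24, limma adjusted p = 0.0182), Kat5 from 18.8 ± 1.6 to 28.2 ± 0.9 (+0.56 ± 0.11, 0.00519) and Kat7 from 12.6 ± 1.9 to 17.1 ± 0.7 (+0.42 ± 0.13, 0.0374). Of the 3 BET bromodomain readers, which bind acetylated histones, Brd2 rose from 32.4 ± 8.6 to 52.8 ± 2.5 FPKM (+0.73 ± 0.16, limma adjusted p = 0.0114). With the GC correction 1 of the 3 readers was higher and 1 lower in this comparison, with a median change of +0.08. The acetyltransferases then had 5 higher and 0 lower. Of 11601 genes, 1200 were higher and 923 lower with that correction.

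No gene of these partner, acetyltransferase and reader lists passed between control MSC and IUA or between primed and control MSC. The 12 immediate-early and heat shock genes differed among the same libraries. After primed MSC against IUA 4 of them were higher and 0 lower, beside 12.2% and 6.97% of all genes. Their summed level was 3601.1 to 3804.1 FPKM after primed MSC against 2438.6 to 3059.8 in IUA and 2908.3 to 3487.5 after control MSC. Jund, an AP-1 gene of that list, had 36.4 ± 23.1 FPKM in IUA and 95.6 ± 2.8 after primed MSC. Their part in the change of Hdac5 was not tested.

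Among all genes tested, those whose levels followed Hdac5 most closely over the 12 libraries were Epb41, Coro7 and Fam214b, with root mean square differences of 0.162, 0.165 and 0.204 on the log2 scale after each gene was centred. Epb41, which encodes a protein of the membrane skeleton, measured 18.2 ± 1.8 FPKM in Sham, 10.99 ± 2.52 in IUA, 17.8 ± 0.8 after control MSC and 34.4 ± 3.1 after primed MSC. Coro7, of the coronin family, measured 5.89 ± 0.52, 4.61 ± 1.54, 8.05 ± 0.97 and 16.2 ± 1.1 FPKM in the same order. For Hdac6 the nearest genes were Serinc5, Pomgnt1 and Itgb4 (0.113, 0.133 and 0.137), and for Hdac3 they were Bcat2, Abcc4 and Grhl2 (0.0911, 0.0912 and 0.106). Itgb4 and Grhl2 are known from epithelium, and their means were 4.80 ± 0.50 and 1.41 ± 0.30 FPKM in Sham and at most 1.80 ± 0.62 and 0.423 ± 0.215 in the other groups. Grhl2 passed the filter through the Sham libraries alone, and the pseudocount of 1 compresses the fold of so low a gene. Its place among the genes most like Hdac3 follows in part from these settings. These are descriptions of likeness over libraries that share their groups.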

How the data were processed

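Per the labels, 3 libraries for each of 4 groups were made from polyA-selected RNA with random priming. The authors deposited 1 FPKM value per gene and library, rounded to 2 decimals; tools listed in the submitters' processing notes are DESeq2, RSEM, StringTie, HISAT2 and fastp, with the build mm10, and versions and parameters are not given in the sources used here. The column sums were 505459.9 to 563751.0 FPKM. The table holds no counts, so sequencing depth is unknown and no counting interval is given. Gene symbols that had turned into dates, 27 of them, were restored.

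The analysis used limma 3.58.1 in R 4.3.3 on log2(FPKM + 1), with a pseudocount of 1 (1 mean per group over all 12 libraries, variance trend, two-sided tests). Genes with at least 1 FPKM in at least 3 libraries were tested, and p-values were adjusted by Benjamini-Hochberg over all 11604 with a threshold of 0.05. The procedure was tested on simulated data. Rescaled libraries were divided by the median ratio of their genes to the geometric mean over libraries, and the GC correction subtracted a lowess curve (span 0.3) on transcript GC content, known for 11601 genes tested from the GENCODE annotation of mm10. For a few values, 3 libraries against 3 cannot give an exact permutation p below 0.1, so class shares carry no test. Other alternatives were pseudocounts of 0.1 and 0.5, no filter, a filter at 5 FPKM, TPM scaling, quantile normalization, a fit to the compared groups alone, array weights, robust empirical Bayes, a threshold of 0.1, each library left out, the replicate number as a block, and epithelial markers as a covariate; median-ratio scaling with the GC correction, and the GC correction without IUA replicate 3, were added after seeing the data.

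The members and the gene lists were chosen with earlier results of these data known. Text names all 10 members, Hdac11 and Adgre1, of each list up to 4 genes with the smallest moderated F p, and for the 3 members with the widest range of group means the 3 genes most like them. The genes called between primed and control MSC were named after their values were seen. Some genes, and the list of NCoR complex genes, are not reported here. Promoter windows are RefSeq's for GRCm38.p6.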

Additional observations from a re-analysis of the deposited data

How the results depend on the processing

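Of 60 changes (10 members in 6 comparisons), 30 kept their call under all alternatives that gave a value. Over 1722 values, 1607 kept direction and side of the threshold, 96 lost the call, 13 gained one and 6 reversed; a change of sign in a value called by neither analysis, 111 times, is not counted as reversed. The number of members called in IUA against Sham, 9 as reported, was 5 with quantile normalization, the GC correction (with or without the replicate block or median-ratio scaling, and without IUA replicate 3) and 0 with the epithelial covariate. In the same comparison, median-ratio scaling alone gave 6, and the fit to the compared groups alone gave 7, with 0 higher. For control MSC against IUA it was 0, and 1 at a threshold of 0.1; for primed MSC against IUA 1, and 2 at that threshold. For primed against control MSC it was 1, and 0 without the filter, with the replicate block and with the GC correction plus block. For control MSC against Sham it was 7, 6 with median-ratio scaling, 5 with quantile normalization or the GC correction, and 0 with the epithelial covariate. For primed MSC against Sham it was 8, 6 with median-ratio scaling or the GC correction, 5 with quantile normalization and 1 with the covariate. The cause of these differences was not tested. Leaving out each library gave 8 to 10, 0 to 1, 1 to 2, 0 to 1, 5 to 7 and 7 to 8 members in the same order. Hdac5 in IUA against Sham reversed to 0.11 with the GC correction, alone or with the block, 0.14 with median-ratio scaling added and 0.12 without IUA replicate 3; Hdac10 there reversed to 0.37 with the GC correction without IUA replicate 3, and Hdac8 after control MSC against Sham to 0.022 with quantile normalization. The replicate numbers did not pair the libraries: 3 of 18 same-number pairs correlated over 0.1 (range -0.293 to 0.288), and 5 libraries correlated best with their own number; the block changed no other call count by over 1.5 times.

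Without Hdac1, class I held 58.1% of the summed FPKM in Sham, 51.2% in IUA, 50.7% after control MSC and 42.1% after primed MSC, class IIa 30.0%, 40.6%, 40.7% and 49.5%, and class IIb 11.9%, 8.19%, 8.62% and 8.40%. Without Hdac4, class I held 78.8%, 73.7%, 72.3% and 63.0%, class IIa 11.6%, 19.5%, 20.2% and 29.7%, and class IIb 9.63% in Sham, 7.49% after control MSC and 7.31% after primed MSC; with the GC correction class IIb held 8.19% in Sham. Shares without Hdac5 were not computed. The number of libraries and the unknown depth limit what low genes such as Hdac7 can show.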
